A study of Mus musculus with 2 samples.

Results

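The barcodes described here are monocytes of the mouse spleen, by the study's methods taken 8 days after infection with LCMV-cl13, the persisting strain of lymphocytic choriomeningitis virus. A barcode marks 1 droplet of the 10x Genomics 3' assay and usually stands for 1 cell, and a unique molecular identifier (UMI) marks 1 captured transcript. Barcodes were chosen as monocytes by raw UMI counts alone, with at least 5 UMIs of *Lyz2*, at least 3 UMIs summed over *Ccr2*, *Fn1* and *Ms4a6c*, fewer than 5 UMIs of *C1qa* and *C1qb*, fewer than 20 of *S100a8* and *S100a9*, fewer than 5 of *Mpo*, *Elane* and *Prtn3*, and no UMI of *Flt3*, *Cd3e* or *Cd79a*. This rule found 487 barcodes among the 23397 of run 1, 383 in PEP-WT and 104 in PEP-619WW, out of 43965 barcodes deposited in all. PEP-WT mice carried the wild-type *Ptpn22* gene, and PEP-619WW mice were homozygous for an allele, made by CRISPR/Cas9 editing, that codes for tryptophan in place of an arginine of the phosphatase PEP. Both groups were infected C57BL/6 mice of 6 to 12 weeks, without an uninfected group in the data used here, and the allele was present in all cells of the PEP-619WW animals rather than in monocytes alone. Live CD45+ splenocytes were sorted from a pool of 4 to 5 mice per genotype, so each genotype is represented by 1 library and single animals cannot be told apart. The labels of both samples name liver, a human T cell line and cells of a tumor, whereas their protocol text and the study's methods describe splenocytes of infected mice. The cell numbers in those methods are the barcode numbers of run 2, so it is uncertain whether the tissue, day, pool and sort given there hold for run 1.

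Inflammatory monocytes leave the bone marrow through the chemokine receptor CCR2 and enter the spleen and inflamed tissues, where they can become macrophages or dendritic-like cells. In virus infection they sense type I interferon through the receptor IFNAR, which activates STAT2 and IRF9 and switches on a large set of antiviral genes, and they sense interferon gamma from T and NK cells, which raises MHC class II and chemokines such as CXCL10. PEP, encoded by *Ptpn22*, is a tyrosine phosphatase of blood cells best known for restraining Src-family kinases, and its human counterpart LYP carries an autoimmunity-associated variant at the matching arginine.

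The PEP-WT monocyte barcodes held 2117692 UMIs with a median of 5143 per barcode (587 to 33367), and the PEP-619WW monocyte barcodes held 715154 UMIs with a median of 6648.5 (826 to 32578). The medians over all barcodes of the libraries were 2832 and 3293 UMIs. The median share of mitochondrially encoded UMIs in monocytes was 2.28% and 2.38%. The libraries had 39 barcode sequences in common, which included 1 PEP-WT and 2 PEP-619WW monocytes, and no sequence was called a monocyte in both. Levels are UMIs of a gene per 1000000 UMIs of the same barcodes (CPM), and a log2 ratio is the PEP-619WW level over the PEP-WT level. The 95% intervals beside shares and ratios are exact and cover counting error only, and with 1 library per genotype there was no replicate error, no test and no p-value. A second deposited pair of libraries, run 2, differed in content and is used only as an alternative setting. In run 1 monocytes *Xist*, which female cells express, was at 464 and 396 CPM and the Y-linked genes *Ddx3y*, *Eif2s3y*, *Kdm5d* and *Uty* had no UMI. In run 2 monocytes *Xist* was at 250.4 CPM in PEP-WT and 0 in PEP-619WW, and *Ddx3y* at 28.9 and 63.5 CPM, so the run 2 libraries also differed in the sex of the animals. The part of this in the differences between the runs was not tested.

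The rule itself fixed several values, which are therefore given only as a description. *Lyz2* (lysozyme) ranged from 5 to 370 UMIs per PEP-WT monocyte barcode with a median of 76, and from 5 to 451 UMIs in PEP-619WW with a median of 83.5. The sum of *Ccr2*, *Fn1* and *Ms4a6c* had medians of 13 and 15.5 UMIs. Just inside the threshold, 15 PEP-WT and 8 PEP-619WW barcodes had a sum of exactly 3. Just outside it, 16 and 20 barcodes that met every other condition had a sum of exactly 2. For *Lyz2*, 3 and 6 barcodes lay at 5 UMIs, and 2 and 1 lay at 4 UMIs. The limit on C1q alone kept 133 barcodes of PEP-WT and 111 of PEP-619WW out. For *Cd79a* alone these numbers were 102 and 40. The condition on *S100a8* and *S100a9* alone removed 65 and 22, and that on the 3 granule protease genes removed 30 and 33.

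Marker genes that the rule did not use were at high levels in these barcodes. *Chil3*, which codes for a chitinase-like protein of monocytes and neutrophils, was at 6509 and 8235 CPM in PEP-WT and PEP-619WW monocytes against 11.8 and 22.9 CPM in B cells. In neutrophils *Chil3* was at 3508 and 3857 CPM, and in macrophages at 1763 and 4465 CPM. *Plac8* was at 7441 and 7664 CPM, against 1804 and 1455 CPM in B cells. It was closer in macrophages, at 4242 and 4629 CPM, and in dendritic cells, at 3192 and 4500 CPM. *F13a1* (coagulation factor XIII) was at 289 and 162 CPM, and in neutrophils it was at 87.2 and 26 CPM. *Vcan* (versican) was at 183 and 179 CPM and *Csf1r*, the receptor of macrophage colony-stimulating factor, at 353 and 279.7 CPM, while both were under 5 CPM in B cells. In macrophages *Vcan* was lower, at 26.9 and 47.7 CPM, but *Csf1r* was higher, at 436 and 439.6 CPM. *Ly6c2*, the gene of the surface protein that marks inflammatory monocytes, was at 4002 and 2693 CPM, but B cells also had 1156 and 1191 CPM of it. Neutrophils had 2139 and 1620 CPM of *Ly6c2* and macrophages 1673 and 1678 CPM. The neutrophil gene *Ly6g* and the dendritic cell gene *Cd209a* had no UMI in either set of monocytes, which allows levels of up to 1.42 CPM in PEP-WT and 4.19 CPM in PEP-619WW (3 UMIs of the total). *Cd209a* had only 6 and 8 UMIs in the dendritic cell barcodes themselves, so its absence tells little. The dendritic cell genes *Clec9a*, *Xcr1* and *Siglech* had 16, 10 and 4 UMIs in PEP-WT monocytes and 5, 0 and 0 in PEP-619WW monocytes. The macrophage gene *C1qc* was at 38.7 and 51.7 CPM, compared with 1305 and 1554 CPM in macrophages. *C1qa* and *C1qb* were used to choose both sets of barcodes, and the rule also limited the neutrophil genes *S100a8* and *S100a9*. The low *C1qc* and the absent *Ly6g* are therefore no independent check of the cell type. The non-classical monocyte genes *Ace*, *Treml4* and *Adgre4* were present too, at 59.5 and 40.6 CPM, 96.8 and 83.9 CPM and 60 and 58.7 CPM. In macrophages *Ace* was lower, at 21.7 and 28.2 CPM. *Treml4* and *Adgre4* were higher there, at 142 and 90.1 CPM and 92.9 and 74.6 CPM, so they do not set monocytes apart from macrophages.

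**Figure D1:**
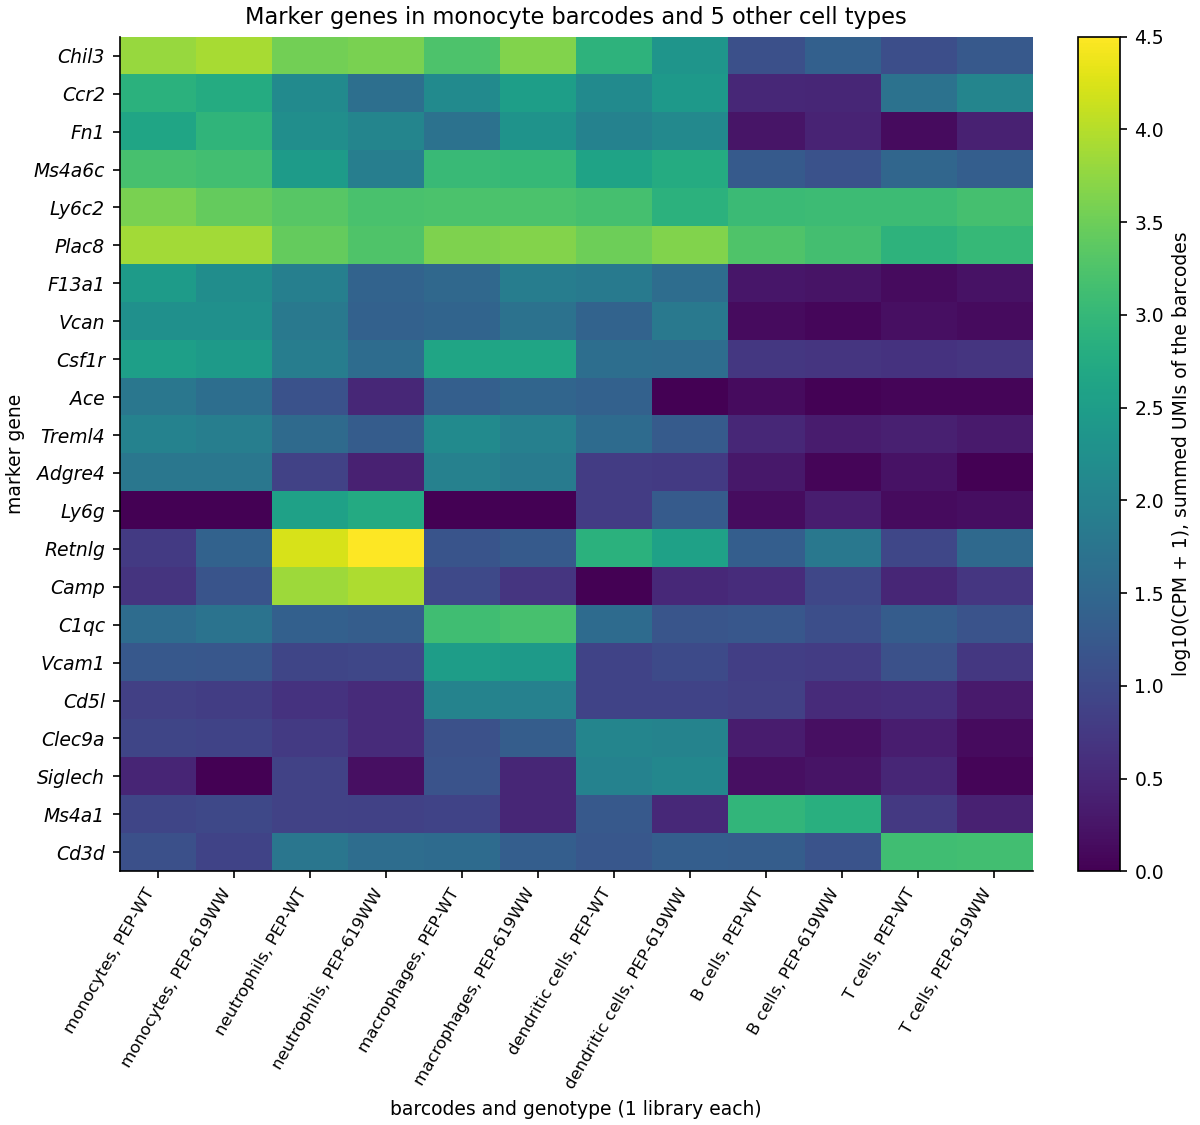
Levels of marker genes, drawn as log10(CPM + 1), in 6 sets of barcodes, with the PEP-WT and PEP-619WW libraries of run 1 side by side. *Chil3* is highest in the monocyte columns of each genotype, and so are *Fn1*, *Ccr2* and *Ms4a6c*, which the rule used. *Ly6g* is at 0 in monocytes and *C1qc* is far lower than in macrophages, but the limits on *S100a8*, *S100a9*, *C1qa* and *C1qb* favor both.

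Monocytes made up 2.58% of PEP-WT barcodes (383 of 14821, interval 2.33 to 2.85%) and 1.21% of PEP-619WW barcodes (104 of 8576, 0.992 to 1.47%), a difference of -1.37 percentage points. Since the rule counts UMIs and the depth differed between the libraries, each barcode was also thinned to a fixed number of UMIs before the rule was applied. At 1000 UMIs, with 978 shallower barcodes dropped from PEP-WT and 1173 from PEP-619WW, the shares were 1.97% (1.75 to 2.22%) and 1.46% (1.20 to 1.76%). At 2000 UMIs, which left out 4181 and 2429 barcodes, they were 4.01% (3.65 to 4.40%) and 2.96% (2.55 to 3.42%). The monocyte share was lower in the PEP-619WW library at each depth, by less than without thinning, and the intervals met at 1000 UMIs. Thinning also lowers the counts under the upper limits of the rule, so it admits barcodes that the full counts keep out. At 2000 UMIs 427 and 182 barcodes passed, against 383 and 104 without thinning. The thinned shares thus describe another set of barcodes and do not isolate the effect of depth. In run 2 the same rule took 8.32% and 21.4% of barcodes, the opposite order. The limit on C1q alone kept out 133 PEP-WT and 111 PEP-619WW barcodes, beside the 383 and 104 kept, so the size of the difference depends in part on that limit. In macrophages, chosen by at least 10 UMIs of C1q, 10 of 22 classical monocyte genes were at least 1.5-fold higher in PEP-619WW and 0 lower, with a median of 0.56. Of all 3569 genes with at least 100 UMIs in macrophages, 175 were higher and 161 lower, with a median of 0.0085. These macrophages are not the same set as the barcodes that the C1q limit kept out. A share of sorted CD45+ cells also depends on the number of all other cells, and these shares come from 1 pool per genotype.

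Of 3830 genes with at least 100 UMIs over the monocytes of both libraries, 112 (2.92%) were at least 1.5-fold higher in PEP-619WW and 293 (7.65%) at least 1.5-fold lower. For 104 and 253 of them the interval excluded no change. The counts of higher and lower list members below are to be set beside the 2.92% and 7.65% of all genes. The median log2 ratio of all 3830 genes was -0.089, and with ratios centred on that median the split became 185 higher and 193 lower, so the excess of lower genes depended on the scaling. Of the genes named here whose interval excluded no change, 13 of the 26 higher ones with a ratio in run 2 and 13 of the 46 lower ones kept their direction there. Run 2 as a whole was shifted to higher ratios, with a median of 0.22 over all genes, 1672 genes at least 1.5-fold higher and 312 lower. These counts are therefore not a result about the named genes alone. Leading genes were the 12 in each direction whose interval lay farthest from no change, after the removal of immunoglobulin, hemoglobin and ribosomal protein genes and of genes less than 2-fold above their B cell level in the library where they were higher. Of these 24 genes 18 were at least 2-fold above the B cell level in both libraries, while *Apoe*, *Bhlhe40*, *Lgals9*, *Fabp5*, *Ctla2a* and *Trim30a* met the condition only through the library where they were higher.

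The leading higher genes had varied functions. *Apoe* (apolipoprotein E, chr7:19696109-19699188, - strand) was at 469 CPM in PEP-WT and 1505 CPM in PEP-619WW (log2 ratio 1.68, interval 1.56 to 1.81), but in PEP-WT it was near the B cell level of 421 CPM. *Apoc2*, the cofactor of lipoprotein lipase, was at 87.4 and 187 CPM (log2 ratio 1.1). *Fcgr4*, an activating receptor for IgG, was at 258 CPM in PEP-WT and 538 CPM in PEP-619WW (log2 ratio 1.06, interval 0.87 to 1.25). *Cxcl10*, the chemokine that attracts CXCR3+ T cells, was at 410.4 and 773 CPM (0.91, interval 0.76 to 1.07), and *Ccl6*, a chemokine of myeloid cells, at 416 and 796 CPM (0.94, interval 0.78 to 1.09). *Fn1* (fibronectin), a gene of the rule, was at 443 and 882 CPM (0.99), but 1 PEP-619WW barcode held 122 of its 631 UMIs, and without the top barcode of each library the ratio was 0.74. *Itgam*, which codes for CD11b, was at 285 and 501 CPM (0.81). Lower in abundance were *Bhlhe40*, a transcription factor of activated myeloid and T cells (23.1 and 76.9 CPM, 1.73), *Palld*, which codes for an actin-binding protein (26.4 and 78.3 CPM, 1.57), *St3gal5*, which codes for the enzyme that makes ganglioside GM3 (31.6 and 89.5 CPM, 1.5), the mitochondrial carrier gene *Sfxn3* (25.5 and 68.5 CPM, 1.43), and *Gbp2b*, a guanylate-binding protein gene of the interferon gamma response (26 and 69.9 CPM, 1.43, interval 0.85 to 2.01) whose near-identical neighbors make its counts uncertain.

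Of the 12 leading lower genes, *Isg15*, *Irf7*, *Ifi44*, *Ifi27l2a* and *Trim30a* belonged to the list of type I interferon genes. *Trim30c*, a paralog of *Trim30a*, was at 60.4 and 21 CPM (-1.53), and reads may be split between members of this family. *Ctla2a*, which codes for a cathepsin inhibitor, was at 93 CPM in PEP-WT and 16.8 CPM in PEP-619WW (log2 ratio -2.47, interval -3.45 to -1.63). *Fabp5*, which codes for a fatty acid-binding protein, was at 101 and 29.4 CPM (-1.78, interval -2.5 to -1.13). *Trem3*, a receptor gene of the TREM family, was at 85.5 and 29.4 CPM (-1.54). *Ass1*, the gene of the enzyme that regenerates arginine from citrulline, was at 144 and 54.5 CPM (-1.41), and *Upp1* (uridine phosphorylase) at 123 and 50.3 CPM (-1.29). *Lgals9*, the gene of galectin-9, was at 222 and 105 CPM (-1.08).

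**Figure D2:**
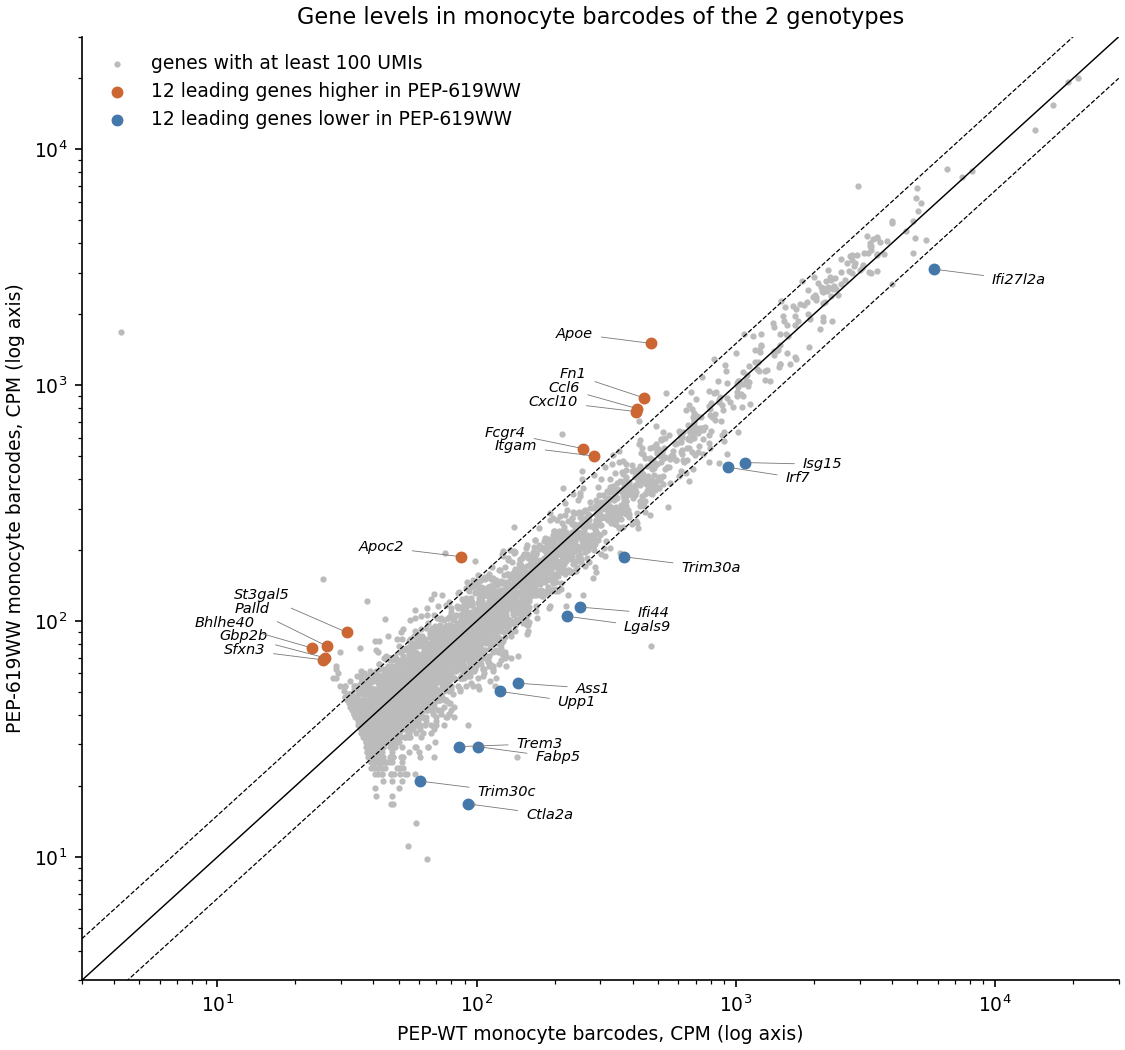
Level of each gene with at least 100 UMIs in PEP-WT (x axis) and PEP-619WW (y axis) monocytes, in CPM on log axes. The solid line is equality and the dashed lines mark 1.5-fold; the 12 leading genes in each direction are named, with *Apoe* above and *Isg15*, *Irf7* and *Ifi27l2a* below the band at higher levels, and the lone grey point at the upper left is *Igha*, which came from 1 barcode.

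Many genes of the type I interferon response were lower in PEP-619WW monocytes of run 1. Of 61 genes in the list, 55 had at least 100 UMIs, of which 21 were at least 1.5-fold lower, 1 was at least 1.5-fold higher and 50 had a log2 ratio under 0. Of all 3830 genes, 7.65% were at least 1.5-fold lower and 2.92% at least 1.5-fold higher. The median log2 ratio of the list was -0.50, compared with -0.089 over all genes, and the summed level of the list was 28834 CPM in PEP-WT and 20273 CPM in PEP-619WW. In run 2 the median of the list was 1.05, the opposite direction, with *Isg15* at 0.63, *Irf7* at 1.2 and *Ifi27l2a* at 0.78. The barcode numbers of run 2 match the cell numbers in the study's methods. Run 2 also held another mix of cells, and its median over all genes was 0.22. The cause of the opposite direction was not tested. The list was chosen with earlier results of these data known. *Isg15*, a ubiquitin-like protein that is joined to other proteins in infected cells, was at 1087 CPM in PEP-WT and 469.8 CPM in PEP-619WW (log2 ratio -1.21, interval -1.38 to -1.04). B cells of the same libraries had 224 and 82.8 CPM of *Isg15*. *Irf7*, the transcription factor that amplifies type I interferon production, was at 932 CPM in PEP-WT and 449 CPM in PEP-619WW (log2 ratio -1.05, interval -1.23 to -0.88). *Ifi27l2a*, the most abundant gene of the list in PEP-WT, was at 5837 CPM in PEP-WT and 3101 CPM in PEP-619WW (log2 ratio -0.91, interval -0.98 to -0.85). *Bst2* (tetherin, which holds budding virus on the cell) was at 927 and 513 CPM (-0.85), *Ifi44* at 250.3 and 115 CPM (-1.13), *Slfn4* at 119 and 57.3 CPM (-1.05) and *Trim30a* at 369.7 and 187 CPM (-0.98).

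Of the signaling genes of the pathway, *Stat2* was at 201 and 134 CPM (-0.58, interval -0.92 to -0.26), while *Irf9* was at 86.9 and 72.7 CPM with an interval that included no change (-0.26, interval -0.73 to 0.19). *Usp18*, which removes ISG15 and damps the receptor, was at 112 and 64.3 CPM (-0.80), but its direction turned after thinning to 2000 UMIs (0.079). The RNA-binding effectors *Ifit1*, *Ifit2* and *Ifit3* had log2 ratios of -0.51, -0.51 and -0.51. Those of *Oas1a* and *Oas3*, whose products sense double-stranded RNA, were -0.61 and -0.61. *Cmpk2*, a mitochondrial nucleotide kinase gene, was at -0.91 and its genomic neighbor *Rsad2* (viperin) at 0.047, interval -0.30 to 0.39. *Zbp1*, a sensor of Z-form nucleic acid, was at -0.47. Of the 5 genes with a log2 ratio above 0, besides *Rsad2*, *Ifit1bl1* was at 55.2 and 83.9 CPM (0.60, interval 0.13 to 1.06), *Ifitm6* at 365 and 478 CPM (0.39), *Phf11a* at 0.14 and *Daxx* at 0.11. *Samhd1*, which codes for an enzyme that breaks down nucleotides, was at -0.022, and *Ifitm3*, which restricts virus entry, at 4917 and 4196 CPM (-0.23, interval -0.29 to -0.17).

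**Figure D3:**
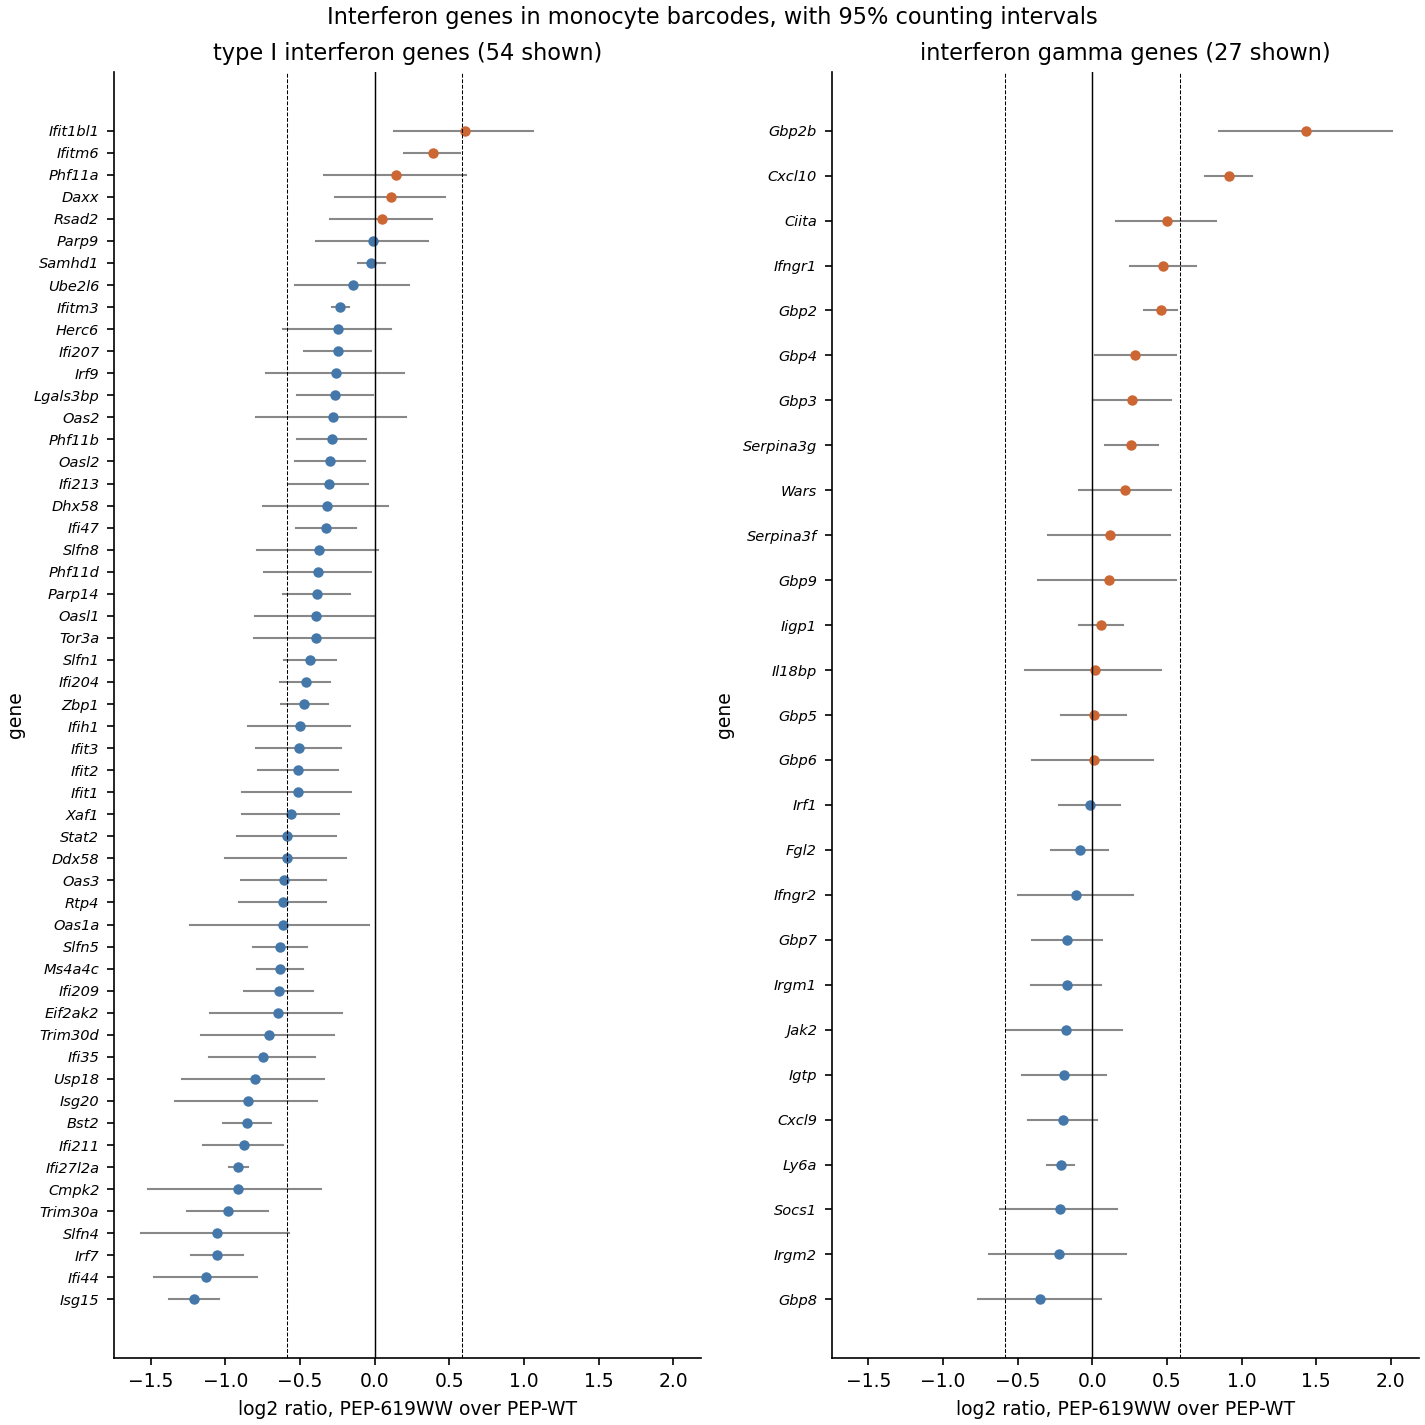
Log2 ratio of PEP-619WW over PEP-WT monocytes for members of the type I interferon and interferon gamma lists, with 95% counting intervals. Nearly all type I genes lie left of 0 and *Isg15* is the lowest at -1.21, whereas the interferon gamma genes lie on both sides of 0 with *Gbp2b* and *Cxcl10* at the right.

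Promoter sequences of *Isg15*, *Irf7* and *Cxcl10* are shown because *Isg15* and *Irf7* were leading lower genes and *Cxcl10* was a leading higher gene, although all are known interferon targets. Each is the 250 bases before the RefSeq start of the gene, read 5′ to 3′ on the gene's strand (GRCm38.p6, all on the minus strand). *Isg15* is chr4:156200819-156201068, *Irf7* is chr7:141266425-141266674 and *Cxcl10* is chr5:92348890-92349139. Capitals mark matches to the core of the interferon-stimulated response element, taken as 2 copies of GAAA with 2 bases of any kind between them. This element is bound by factors of the IRF family, and it was searched on both strands.
Isg15: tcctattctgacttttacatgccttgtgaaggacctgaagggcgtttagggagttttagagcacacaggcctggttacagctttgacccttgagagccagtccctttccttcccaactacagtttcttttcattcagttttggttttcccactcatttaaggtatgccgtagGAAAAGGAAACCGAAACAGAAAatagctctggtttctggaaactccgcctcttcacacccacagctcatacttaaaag
Irf7: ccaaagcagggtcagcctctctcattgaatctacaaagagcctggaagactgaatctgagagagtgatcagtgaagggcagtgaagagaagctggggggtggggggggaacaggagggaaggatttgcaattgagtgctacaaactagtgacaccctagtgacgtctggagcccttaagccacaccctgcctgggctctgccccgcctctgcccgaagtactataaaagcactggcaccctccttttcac
Cxcl10: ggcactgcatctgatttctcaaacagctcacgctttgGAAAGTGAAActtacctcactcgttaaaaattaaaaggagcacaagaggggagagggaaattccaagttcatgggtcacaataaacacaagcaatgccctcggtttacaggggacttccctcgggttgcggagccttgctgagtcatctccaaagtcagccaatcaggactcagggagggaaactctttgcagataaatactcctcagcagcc
The *Isg15* promoter held 3 overlapping matches between 78 and 57 bases before the start, the *Cxcl10* promoter held 1 match between 213 and 204 bases before it, and no match lay in this window of *Irf7*. Over windows that also took in the first 50 bases after the start, the motif was in at least 1 promoter of 1079 of 27025 genes (3.99%). RefSeq promoters were matched to 47 genes of the type I list and 21 of the interferon gamma list, of which 24 (51.1%) and 12 (57.1%) held the motif. Among type I genes with a ratio, 10 of 22 with the motif and 8 of 22 without it were at least 1.5-fold lower, with medians of -0.55 and -0.41. In the interferon gamma list the medians were -0.079 over 10 genes with the motif and -0.017 over 9 without it. Lower genes were thus found with and without the motif, and a match is a description of the sequence, not a shown binding site.

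The lower interferon level was spread over the barcodes rather than held by a few. With each monocyte thinned to 2000 UMIs, which kept 359 barcodes of PEP-WT and 89 of PEP-619WW and dropped 24 and 15, the type I list had a median of 60 UMIs per PEP-WT barcode (20 to 139) and 40 per PEP-619WW barcode (9 to 100). The middle 50% of barcodes ran from 47 to 73 UMIs in PEP-WT and from 31 to 50 in PEP-619WW. All 359 PEP-WT barcodes had at least 20 UMIs of the list, compared with 82 of 89 in PEP-619WW (92.1%, interval 84.5 to 96.8%), and in B cells of the same depth the shares were 30.4% and 11.3%. A UMI of *Isg15* was found in 79.4% of PEP-WT monocytes (74.8 to 83.5%) and 47.2% of PEP-619WW monocytes (36.5 to 58.1%), compared with 23.8% and 8.11% of B cells at 2000 UMIs. Without thinning the *Isg15* shares of monocytes were 92.4% and 65.4%.

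The difference was also seen within subsets of monocytes cut by *Ly6c2* or MHC class II, both of which are ranges rather than types. Among barcodes with at least 3 *Ly6c2* UMIs, the interferon medians were 62 UMIs over 318 PEP-WT barcodes and 40 over 67 PEP-619WW barcodes. Below that cut they were 47 UMIs over 41 barcodes and 41 over 22. Among barcodes with at least 5 UMIs of *H2-Aa*, *H2-Ab1* and *H2-Eb1* the medians were 56 and 38.5, and among those with fewer they were 65 and 45, with only 19 PEP-619WW barcodes in the latter set. The genotype with the lower median was PEP-619WW in each of the 4 subsets, and the gap was smallest in the *Ly6c2*-low one. There the middle 50% of barcodes ran from 36 to 58 UMIs in PEP-WT and from 37 to 45 in PEP-619WW. Both cuts divide the same barcodes and are linked, so the subsets are not separate checks. The class II medians were 17 and 21.5 UMIs below the *Ly6c2* cut and 4 and 9 above it.

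**Figure D4:**
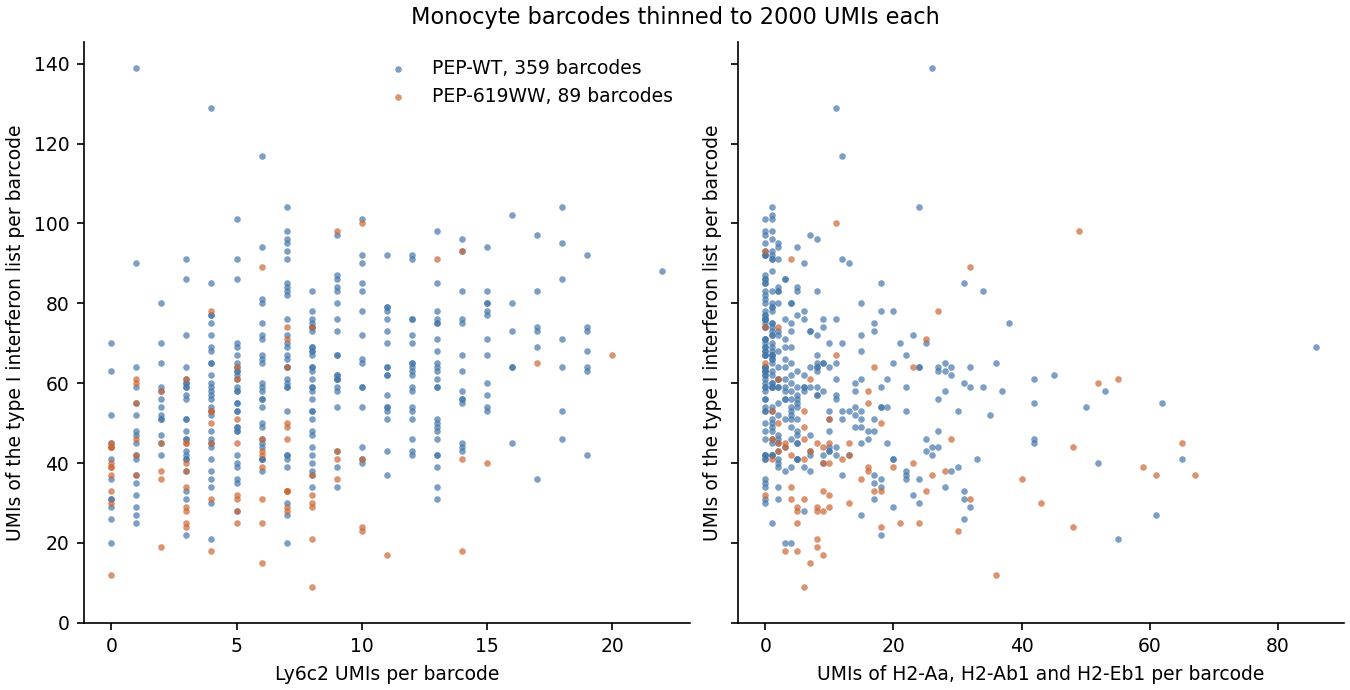
UMIs of the type I interferon list (y axis) against UMIs of *Ly6c2* (left) and of *H2-Aa*, *H2-Ab1* and *H2-Eb1* (right) per monocyte barcode after thinning to 2000 UMIs, with each point 1 barcode. PEP-619WW points lie lower on the y axis across most of both x axes (medians of 40 and 60 UMIs), but the points of the genotypes overlap.

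Interferon gamma genes did not share this direction. Of 27 genes with at least 100 UMIs, 2 were at least 1.5-fold higher and 0 lower, and the median log2 ratio was 0.010. The 2 higher genes were *Gbp2b* and *Cxcl10*. *Cxcl10* was concentrated in few barcodes, since its median was 0 UMIs in both genotypes and 1 PEP-619WW barcode held 90 of 553 UMIs; without the top barcodes the ratio was 0.78. *Cxcl9*, which binds the same receptor, was at 322 and 281 CPM (-0.19, interval -0.43 to 0.035). *Gbp2* was at 999.7 and 1373 CPM (0.46), *Ifngr1*, the interferon gamma receptor gene, at 251 and 349.6 CPM (0.48), *Irf1* at -0.017 and *Ly6a*, which is also expressed in B cells, at -0.21.

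In the MHC class II list 1 of 9 genes, *H2-Aa*, was at least 1.5-fold higher in PEP-619WW monocytes and 0 were lower. The log2 ratio was under 0 for 2 genes, and the median was 0.46. *H2-Aa*, the alpha chain of I-A, was at 1799 CPM in PEP-WT and 2760.2 CPM in PEP-619WW (log2 ratio 0.62, interval 0.54 to 0.70). *H2-Ab1* was at 2009 and 2883 CPM (0.52), *H2-Eb1* at 1546 and 2149 CPM (0.48), and *Cd74*, the invariant chain, at 5018 and 6882 CPM (0.46). *Ciita*, the master transcriptional activator of class II, was at 112 and 158 CPM (0.50, interval 0.16 to 0.83). The genes of antigen processing in the list were closer to 0, with *Ctss* (cathepsin S) at 0.078, *H2-DMa*, which codes for a chain of the peptide exchanger H2-DM, at -0.093 and *Ifi30*, which codes for a lysosomal thiol reductase, at -0.12. At 2000 UMIs, 50.1% of PEP-WT monocytes (44.8 to 55.4%) and 78.7% of PEP-619WW monocytes (68.7 to 86.6%) had at least 5 UMIs of the 3 class II chains, and 18 and 4 barcodes lay exactly at 5. B cells, which make class II themselves and cannot serve as a background for it, had such counts in 95.6% and 93.2% of barcodes. The B cell levels of *H2-Aa* were 2482 and 2124 CPM, lower in PEP-619WW, the opposite order to monocytes. Of 20 class I genes 0 were past 1.5-fold in either direction, with a median of -0.13, *B2m* at 0.16 and *H2-D1* at 0.18.

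Genes of classical monocytes were mixed. Of 17 genes outside the rule with at least 100 UMIs, 1 was at least 1.5-fold higher (*Itgam*) and 4 lower, with a median of -0.034. Among the lower genes were *F13a1* at 289 and 162 CPM (-0.83, interval -1.13 to -0.54), *Hp*, which codes for the hemoglobin-binding haptoglobin, at 660.2 and 393 CPM (-0.75, interval -0.94 to -0.56), and *Ms4a4c*, which the type I interferon list also holds, at 901 and 582 CPM (-0.63). *Ccr2* was at 749 and 590.1 CPM (-0.34) and *Ms4a6c* at 1576 and 1368 CPM (-0.20), both of them genes of the rule. *Ly6c2* had a log2 ratio of -0.57, interval -0.64 to -0.50. At 2000 UMIs at least 3 *Ly6c2* UMIs were found in 88.6% of PEP-WT monocytes (84.8 to 91.7%) and 75.3% of PEP-619WW monocytes (65.0 to 83.8%), against 17.0% and 13.5% of B cells. *Chil3* was uneven between barcodes: its summed level was higher in PEP-619WW (0.34), but its median per 10000 UMIs was 52.3 in PEP-WT barcodes and 28.5 in PEP-619WW barcodes.

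Of 11 non-classical monocyte genes, 0 were at least 1.5-fold higher and 1 was lower, *Itgal*, the gene of the LFA-1 alpha chain, at 415 and 260.1 CPM (-0.67), and the median was -0.095. *Nr4a1*, the transcription factor that non-classical monocytes need, was at 260.2 and 243 CPM (-0.097, interval -0.35 to 0.15). At 2000 UMIs, 30.9% of PEP-WT monocytes (26.2 to 36.0%) and 28.1% of PEP-619WW monocytes (19.1 to 38.6%) had a UMI of *Ace*, *Treml4* or *Adgre4*, compared with 0.353% and 0.256% of B cells. These intervals overlapped widely, and a difference of several percentage points in either direction could not be detected with 89 barcodes. Of 24 myeloid transcription factors 1 was higher and 0 lower, namely *Runx1* at 92.1 and 147 CPM (0.67, interval 0.32 to 1.02), while *Spi1* (PU.1) was at -0.21 and *Cebpb* at -0.17. Of 14 genes for migration receptors outside the rule 1 was higher, *Itgam*, and 2 were lower, among them *Itgal*, with *Itga4* at 0.17.

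Chemokine genes were split by gene. Of 8 measured, 3 were at least 1.5-fold higher (*Cxcl10*, *Ccl6* and *Ccl9*) and 1 was lower (*Ccl2*), with a median of 0.24, which turned to -0.36 in run 2. *Ccl9* was at 139 and 252 CPM (0.86, interval 0.58 to 1.13). *Ccl2*, the ligand of CCR2, was at 78.4 and 40.6 CPM (-0.95, interval -1.57 to -0.38). One PEP-619WW barcode held 78 of the 569 *Ccl6* UMIs, and without the top barcodes the *Ccl6* ratio was 0.78.

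Cytokine and inflammasome genes were mostly near the ratio of all genes. Of 18, 1 was higher and 2 were lower, with a median of -0.093. *Il1b* was at 90.7 and 138 CPM (0.61, interval 0.25 to 0.97), but without the top barcodes its ratio was 0.40 and the interval included no change. *Il18*, the gene of a cytokine that raises interferon gamma in T and NK cells, was at 68.5 CPM in PEP-WT and 26.6 CPM in PEP-619WW (log2 ratio -1.37, interval -2.14 to -0.67). The other lower gene was *Il1rn*, the gene of the interleukin-1 receptor antagonist (57.6 and 37.8 CPM, -0.61, interval -1.27 to 0.0010). Among 6 costimulatory and checkpoint ligands, *Lgals9* was the 1 lower gene and 0 were higher. The inflammasome adaptor gene *Pycard* was at 0.0024 and the NF-kB inhibitor gene *Nfkbia* at -0.088. The checkpoint genes *Sirpa* and *Vsir* were at -0.26 and -0.10.

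Of 21 genes for Fc receptors and phagocytosis, 3 were higher and 2 were lower, with a median of -0.020. *Fcgr4*, as above, was higher, whereas *Fcgr1*, the gene of the high-affinity IgG receptor, was at 303 and 193 CPM (-0.65, interval -0.93 to -0.38). *Fcer1g*, the signaling chain that both receptors share, was at 3257 and 3015 CPM (-0.11). *Msr1* (scavenger receptor A) was at 113 and 55.9 CPM (-1.01). The other higher genes were *Lgmn* and *Ctsl*, which code for lysosomal proteases, at 66.6 and 124 CPM (0.90) and 64.7 and 97.9 CPM (0.60), although B cells had 107 and 100.1 CPM of *Lgmn*. *Cyba*, a subunit of the phagocyte oxidase, was at 0.076.

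Of 5 complement genes outside the rule 3 were at least 1.5-fold lower and 0 higher, against 7.65% and 2.92% of all genes, and the median was -0.62. *C3* was at 397 and 259 CPM (-0.62, interval -0.86 to -0.39), *Cfb* (factor B) at 468 and 282 CPM (-0.73, interval -0.95 to -0.51) and *Cfp* (properdin) at 79.3 and 41.9 CPM (-0.92, interval -1.53 to -0.35), all 3 of them parts of the alternative pathway. Of 14 pattern recognition genes 0 were higher and 1 was lower, *Ddx58*, which codes for the RNA sensor RIG-I and is also in the type I interferon list (135 and 89.5 CPM, -0.59). *Unc93b1*, which escorts nucleic acid-sensing Toll-like receptors, was at 0.20 and *Irf5* at -0.14.

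In the list of alternative activation and tissue repair, 3 of 18 genes were higher (*Apoe*, *Trem2* and *Lpl*) and 2 lower (*Fabp5* and *Lgals1*), with a median of 0.25, which turned to -0.58 in run 2. *Trem2*, a lipid receptor gene, was at 40.6 and 82.5 CPM (1.02, interval 0.52 to 1.52), and *Lpl* (lipoprotein lipase) at 215 and 366 CPM (0.77, interval 0.55 to 0.99). *Lgals1*, the gene of galectin-1, was at 545 and 303 CPM (-0.85, interval -1.06 to -0.64). *Apoe* was found in 31.2% of PEP-WT monocytes (26.4 to 36.3%) and 59.6% of PEP-619WW monocytes (48.6 to 69.8%) at 2000 UMIs, but in B cells of the same libraries the shares were 37.0% and 53.4%, so the share of barcodes with an *Apoe* UMI was not above the B cell share beyond counting error. Its median per 10000 UMIs was 0 in PEP-WT and 4.05 in PEP-619WW monocytes. B cells had 421 and 619.8 CPM of *Apoe*, so the PEP-619WW monocyte level was above the B cell level and the PEP-WT monocyte level was close to it. *Apoc2* and *Trem2* had 1.52 and 2.48 CPM and 0.352 and 0.62 CPM in B cells, far under the monocyte levels. The abundant genes *S100a4* and *S100a6* were at 0.43 and 0.41.

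Among acute phase genes 1 of 5 was higher, *Saa3* at 64.2 and 106 CPM (0.73, interval 0.30 to 1.14), and 1 was lower, *Hp*, with *Lcn2* at 0.094 and a median of 0.094. The only metallothionein with at least 100 UMIs, the metal-binding protein gene *Mt1*, was at 51.5 and 83.9 CPM (0.70), and its B cell level was 28.6 and 99.2 CPM. The macrophage gene *Hmox1*, which codes for heme oxygenase, was at 0.47, interval 0.089 to 0.84, and at -0.053 without the top barcodes. *Wfdc17* was at 0.21.

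Genes of glycolysis and hypoxia had a median of 0.0082 over 15 genes, with 1 higher and 3 lower. *Slc16a3*, the lactate exporter gene, was at 45.3 and 86.7 CPM (0.94, interval 0.45 to 1.41). The 3 lower genes were hexokinases, *Hk3* at 118 and 53.1 CPM (-1.15, interval -1.68 to -0.65), *Hk2* at 63.7 and 37.8 CPM (-0.76) and *Hk1* at 47.2 and 30.8 CPM, where the interval included no change (-0.62, interval -1.36 to 0.059), while *Gapdh* and *Pkm* were at 0.0082 and -0.087. Of 78 respiratory chain genes 0 were higher and 1 was lower, *Ndufa12* at -0.68, with a median of -0.12. Of 12 mitochondrially encoded genes 0 were past 1.5-fold, with a median of 0.19, *mt-Atp6* at 0.19 and *mt-Co1* at 0.33. Ribosomal protein genes had a median of 0.24 over 84 genes, 8 of them under 0, and 1 gene, *Rps25*, past 1.5-fold (0.62).

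Most measured genes of dividing cells were lower in PEP-619WW monocytes, but few barcodes carried them. Of 10 mitosis genes 7 were lower and 0 higher (median -0.65), and of 4 DNA replication genes 3 were lower and 0 higher (median -1.0). Over all 3830 genes 7.65% were lower and 2.92% higher (median -0.089). *Top2a* (topoisomerase II) was at 72.7 and 41.9 CPM (-0.79, interval -1.41 to -0.22), *Ccnb2* (cyclin B2) at 40.6 and 19.6 CPM (-1.05, but 0.030 with each barcode weighted equally), *Cenpa* at -0.89, *Cks2* at -0.79 and *Hmgb2* at -0.60. *Pclaf*, *Dut* and *Pcna*, genes of DNA synthesis, were at -1.35, -1.36 and -0.51. One PEP-619WW barcode held 23 of its library's 30 *Top2a* UMIs, and the ratio without the top barcodes was -2.58, whereas after thinning to 2000 UMIs it was 0.074. At 2000 UMIs, at least 2 UMIs of the mitosis list were found in 9.47% of PEP-WT monocytes (6.65 to 12.98%) and 4.49% of PEP-619WW monocytes (1.24 to 11.1%). These intervals overlapped, both shares were below the 16.2% and 17.5% of B cells, and without thinning they were 24.3% and 25%, so a difference in the share of such barcodes was not detectable at this depth.

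Immediate early genes are switched on within minutes by stimuli and tissue handling. Of 19 such genes 5 were lower and 0 higher, against 7.65% and 2.92% of all genes, with a median of -0.13. *Fos* was at 859 and 469.8 CPM (-0.87, interval -1.04 to -0.70), *Fosb* at 58.6 and 14 CPM (-2.07, interval -3.16 to -1.14), *Atf3* at 156 and 88.1 CPM (-0.83) and *Dusp1*, a phosphatase gene that damps MAP kinases, at 211 and 137 CPM (-0.62). The part of cell handling in these values was not tested. *Btg1*, an antiproliferative gene of the same list, was at 0.32.

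*Ptpn22* itself had 78 and 17 UMIs in PEP-WT and PEP-619WW monocytes, a level of 36.8 and 23.8 CPM with a log2 ratio of -0.63, interval -1.48 to 0.14. It was thus below the minimum of 100 UMIs and outside the counts of genes. The interval included no change, and the edited base was not read here, so this level is no check of the genotype. At 2000 UMIs a *Ptpn22* UMI was found in 5.85% of PEP-WT monocytes (3.66 to 8.80%) and 2.25% of PEP-619WW monocytes (0.273 to 7.88%), in both cases below the 12.4% and 19.6% of B cells. In T cells *Ptpn22* was at 205 and 253 CPM. Of 14 genes for PEP and its partners in signaling, 1 was higher and 0 were lower, with a median of -0.15. The higher gene was the Src-family kinase gene *Fyn* (32.1 and 48.9 CPM, 0.61, interval -0.024 to 1.22). The phosphatase genes *Ptpn6* (SHP-1) and *Ptpn18* were at -0.36 and -0.057.

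Genes of other cells were present in the monocyte barcodes and differed between the libraries. The 8 plasma cell genes summed to 3991 CPM in PEP-WT and 8692 CPM in PEP-619WW, and 98.4% and 100% of barcodes had at least 1 of their UMIs. *Igha*, with 9 and 1205 UMIs, came almost wholly from 1 PEP-619WW barcode with 1198 UMIs, and 1 PEP-619WW barcode held 369 of 445 *Jchain* UMIs. Without the top barcodes the log2 ratios of *Igkc* and *Jchain* were 0.49 and 0.11 in place of 1.24 and 1.55. The 7 erythroid genes summed to 833 and 143 CPM, and *Hbb-bs*, a hemoglobin gene, was at 472 and 78.3 CPM (-2.59) in monocytes and at 2376 and 247 CPM in B cells. A hemoglobin UMI was found in 33.7% and 8.99% of monocytes and in 40.8% and 11.8% of B cells at 2000 UMIs, thus at or below the B cell share in both libraries.

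Markers of neighboring cell types outside the rule were low. The 8 neutrophil genes outside the rule summed to 214 and 261 CPM with *Ly6g* and *Cxcr2* at 0, and *S100a9*, a gene of the rule, was at 37.8 and 122 CPM (1.69) with 105 and 174 CPM in B cells. *S100a8* and *Prtn3*, also genes of the rule, were above their B cell levels. *S100a8* was at 364 and 428 CPM, against 66.9 and 129 CPM in B cells, and *Prtn3* at 90.7 and 109 CPM, against 11.1 and 2.76 CPM. The 7 macrophage genes outside the rule summed to 188 and 221 CPM with *Marco* at 0, the 6 dendritic cell genes to 37.3 and 55.9 CPM, and the 4 progenitor genes to 14.6 and 23.8 CPM. B cell, T cell, NK cell and platelet genes summed to 44.4 and 47.5, 58.1 and 26.6, 122 and 97.9, and 51.5 and 8.39 CPM. Melanocyte genes, of which 249 PEP-WT and 25 PEP-619WW barcodes of run 2 held at least 3, gave 0.944 and 0 CPM in monocytes of run 1. A setting without barcodes that had at least 2 UMIs of some markers of other cells kept 360 PEP-WT and 90 PEP-619WW barcodes. In it all 46 lower and 28 of 29 higher genes named here whose interval excluded no change kept their direction. The genes were called in the full 383 and 104 barcodes, most of which this setting keeps, so the kept direction is no independent check. Most barcodes with plasma cell UMIs stayed in, since the medians of those genes were 5 and 8 UMIs per barcode. The part of RNA from other cells in the ratios was not tested.

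Type I interferon genes had medians under 0 in each of the 5 other cell types too. In barcodes of the same libraries the median log2 ratio of the list was -1.02 in neutrophils, -0.43 in macrophages, -0.27 in dendritic cells, -0.67 in B cells and -0.32 in T cells. *Isg15* was at 2577 and 617 CPM in neutrophils (-2.06), 1095 and 425 CPM in macrophages (-1.36) and 622 and 347 CPM in dendritic cells (-0.84). The class II list differed more in direction, with medians of 0.46 in monocytes and 0.24 in dendritic cells, but -1.51 in neutrophils, -0.22 in macrophages, -0.30 in B cells and -0.95 in T cells. The dendritic cell barcodes were themselves chosen by *H2-Aa*, *H2-Ab1* and *H2-Eb1*, so that median is a description only. In T cells the list summed to 777 and 435 CPM, against 17060 and 13719 CPM in B cells, and the part of free RNA was not tested. *Cxcl10*, higher in PEP-619WW monocytes, was lower in PEP-619WW macrophages (1045 and 575 CPM, -0.86) and neutrophils (248 and 105 CPM, -1.24). *Apoe* and *Ccl6* were also higher in PEP-619WW macrophages, at 1830.3 and 4149 CPM (1.18) and 251 and 758 CPM (1.59). *Fcgr4* was at 0.38 in macrophages and -0.089 in neutrophils. The median of the mitosis list was -0.66 in macrophages, -0.26 in T cells, -0.16 in neutrophils and -0.048 in B cells, and 0.26 in dendritic cells. With 1 library per genotype, none of these differences between cell types was tested.

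**Figure D5:**
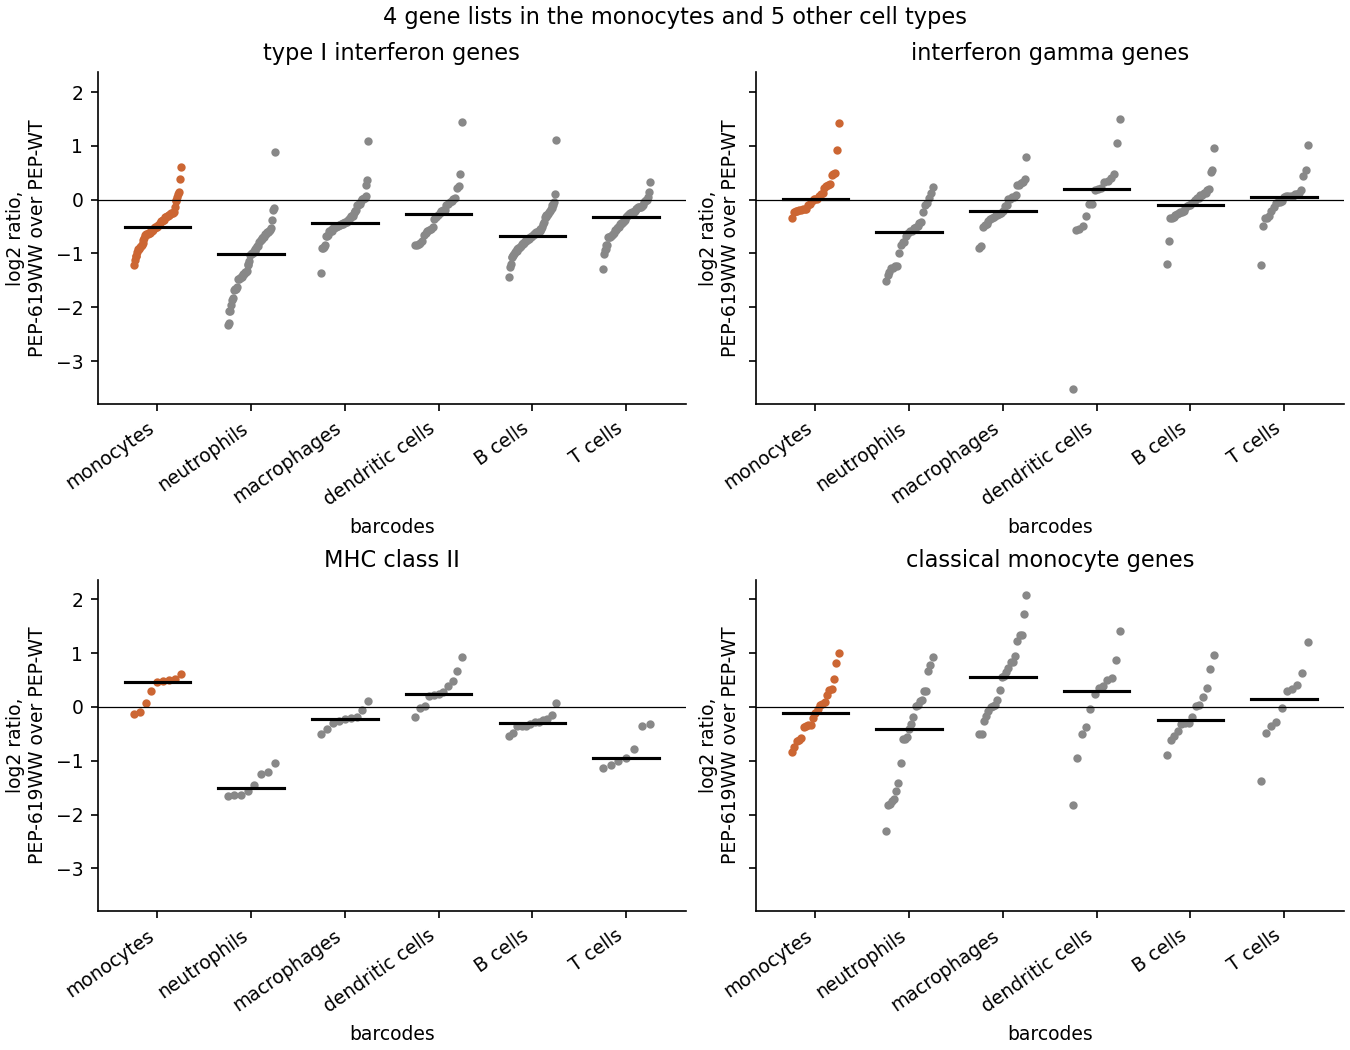
Log2 ratio of PEP-619WW over PEP-WT for genes of 4 lists in monocytes and 5 other sets of barcodes of run 1, with each point 1 gene with at least 100 UMIs and the bar the median. The type I interferon medians are below 0 in all 6 sets, from -1.02 in neutrophils to -0.27 in dendritic cells. The class II medians are above 0 in monocytes and dendritic cells, but class II genes were used to choose the dendritic cells. For monocytes, 4 classical genes plotted were used by the rule.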

How the data were processed

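By the study's methods live CD45+ splenocytes were sorted 8 days after infection, although it is uncertain whether this holds for run 1. The 3' single cell libraries were counted by the authors with Cell Ranger (6.0.0 in the submitters' processing notes) on mm10. The deposited files hold raw UMI counts for 32285 genes, of which 32158 had a symbol, with 1 library per genotype in each of 2 runs. Run 1 was used, in which the totals were 77916082 (PEP-WT) and 56745578 (PEP-619WW) UMIs. The numbers of cells in the study's methods are the barcode numbers of run 2, their relation was not stated, and run 2 held melanocyte genes, so it served only as an alternative. No filter on barcodes was applied beyond the rule, and doublets were neither called nor removed. In 2 alternatives, barcodes with the most UMIs or with at least 2 UMIs of some markers of other cells were removed.

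UMIs were summed per gene over the monocyte barcodes and divided by all UMIs of those barcodes. Ratios were given for genes with at least 100 UMIs over both libraries, with an exact conditional binomial 95% interval, and a gene was counted at 1.5-fold or more. Shares have exact Clopper-Pearson 95% intervals. The calculation was tested on simulated data. Barcodes of neutrophils (at least 50 UMIs of *S100a8* and *S100a9*), macrophages (at least 10 of *C1qa* and *C1qb*), dendritic cells (*Flt3* and at least 10 class II UMIs), B cells (at least 3 of *Cd79a*, with *Ms4a1*) and T cells (at least 2 of *Cd3e*) were taken from the same libraries, and B cells served as the background of free RNA. The members and the 37 gene lists were chosen with earlier results of these data known. Named genes were those of the rule, the 4 with the largest ratio whose interval excluded no change and the 2 with the most UMIs in each list, and the 12 leading genes in each direction, of which some are not reported here. Others named were chosen after their values were seen: members of the interferon and class II lists, the 6 genes *Ms4a4c*, *Il1rn*, *Ctsl*, *Lpl*, *Fyn* and *Hk1* and the genes of other cells. Alternatives changed the minimum of UMIs, scaling, weight of barcodes, depth, gate and run. Promoters came from RefSeq (GRCm38.p6). Scripts ran in python 3.11.15 with scipy 1.17.1, numpy 2.4.6 and matplotlib 3.10.9.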

Additional observations from a re-analysis of the deposited data

Results flagged for a closer look

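Run 2, which the comparisons above do not use, also held barcodes that met the rule for monocytes, 794 in PEP-WT and 2363 in PEP-619WW.

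Several genes past 1.5-fold in monocytes had the opposite sign in another cell type of the same libraries, and none of these differences was tested. *Cxcl10*, higher in PEP-619WW monocytes, had log2 ratios of -1.24 in neutrophils, -0.86 in macrophages and -3.52 in dendritic cells. *Il1b*, also higher in monocytes, was at -1.06, -0.84 and -0.94 in the same cell types. *Fn1*, which the monocyte rule used, was at -0.59 in neutrophils. *Ccl9* was at -1.26, *H2-Aa* at -1.65, *Lpl* at -1.43 and *Ifit1bl1* at -1.67 in neutrophils, and *Saa3* was at -1.03 in macrophages. Of the genes lower in monocytes, *F13a1* was at 1.34 and *Hp* at 0.65 in macrophages, and *Ccl2* was at 0.88 in neutrophils. *S100a9*, a gene of the rule, was at -0.81 in dendritic cells. The plasma cell genes *Jchain* and *Igkc*, whose monocyte values rested on few barcodes, were at -1.67 and -1.19 in macrophages and at -3.83 and -2.75 in dendritic cells.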

How the results depend on the processing

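No replicate was left out, since each genotype has 1 library, and no alternative gives replicate error. No paired analysis was possible because there is 1 library of each genotype in a run and the result comes from no test. All ratios rest on 104 PEP-619WW barcodes, and depth limits them to genes with many UMIs.

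The share of monocytes was 1.97% in PEP-WT after thinning to 1000 UMIs, with a difference of -0.51 percentage points. It was 4.01% and 2.96% after thinning to 2000 UMIs, 2.06% and 0.944% with a stricter rule (at least 10 *Lyz2* UMIs and a sum of 6), and 8.32% and 21.4% in run 2, where the difference turned to 13.1. With minimums of 10 and 300 UMIs per gene, 928 and 27 genes were at least 1.5-fold higher and 1629 and 70 lower. With median-centred ratios 185 were higher and 193 lower, with each barcode weighted equally 494 were lower, and after thinning to 2000 UMIs 48 were higher and 143 lower. In run 2, 1672 were higher and 312 lower. Without barcodes with at least 5 class II UMIs, which left 136 PEP-WT and 12 PEP-619WW barcodes, 67 were higher.

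Of the called genes named in the text whose interval excluded no change, all 29 higher and 46 lower ones kept their direction with centred ratios, with totals without immunoglobulin, hemoglobin, *S100a8*, *S100a9* and mitochondrial genes, with the stricter rule, without the tenth of barcodes with the most UMIs, with a minimum of 1000 UMIs and at most 10% mitochondrial UMIs, and among barcodes with at least 3 *Ly6c2* UMIs. Of the lower ones 37 stayed past 1.5-fold with centred ratios, 39 without the tenth of barcodes with the most UMIs and 41 to 45 under the other 4 of these settings, and of the higher ones 26 to 29 did. After thinning 31 lower and 26 higher ones did, and with barcodes weighted equally 41 and 26. Centring and the changed totals shift all ratios alike, moving the all-gene median from -0.089 to 0 and -0.075. No gene past 1.5-fold could turn under them, so the kept direction was fixed in advance there. The stricter rule, the limits on UMIs, the *Ly6c2* cut and the setting without markers of other cells reuse most of the same barcodes. The genes were called by their ratios in these barcodes, so a kept direction is a description and no independent check. Among the 29 higher genes were *Fn1* and *S100a9*, which the rule used, and *Igha*, which came almost wholly from 1 barcode. The setting with *Ly6c2* UMIs, that without class II barcodes and that without the top barcode of a gene were added after the data were seen. After thinning, *Usp18* and *Top2a* turned to 0.079 and 0.074, with each barcode weighted equally *Ccnb2* turned to 0.030, and without barcodes holding markers of other cells *Jchain* turned to -0.65.

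In run 2, 13 of 26 higher and 13 of 46 lower genes with a ratio there kept their direction, the higher genes *Igha*, *Igkc* and *Jchain* had no PEP-WT UMI, and the cause was not tested, with *Xist* at 250.4 CPM in PEP-WT and 0 in PEP-619WW there. The medians there were 1.05 for type I interferon genes, -0.36 for chemokines and -0.58 for alternative activation, and 0.22 over all genes. Genes lower in run 1 had run 2 log2 ratios of *F13a1* 0.41, *Hp* 2.29, *Itgal* 2.58, *Isg15* 0.63, *Ifi44* 1.05, *Irf7* 1.2, *Slfn4* 1.33, *Ifi27l2a* 0.78, *Trim30a* 1.18, *Trim30c* 1.45, *Oas3* 1.64, *Oas1a* 1.39, *Bst2* 0.30, *Usp18* 1.37, *Cmpk2* 0.97, *Lgals9* 0.72, *Il18* 0.94, *Ddx58* 1.18, *Fcgr1* 0.16, *Cfb* 0.97, *C3* 1.39, *Hk2* 0.030, *Pclaf* 0.56, *Cenpa* 0.25, *Top2a* 0.17, *Cks2* 0.31, *Hmgb2* 0.64, *Fos* 0.51, *Dusp1* 0.085, *Ctla2a* 1.0, *Ass1* 0.46, *Trem3* 1.1 and *Ms4a4c* 1.6. Genes higher in run 1 had *Fn1* -0.61, *Itgam* -0.017, *Gbp2b* -0.54, *Ccl6* -0.67, *Ccl9* -0.26, *Lgmn* -0.52, *Apoe* -0.18, *Trem2* -1.34, *Saa3* -0.74, *Mt1* -0.68, *Palld* -0.31, *Ctsl* -2.02 and *Lpl* -0.74. Without class II barcodes, a setting that removes class II UMIs by its own construction, the class II median was -0.54, and the ratios were *F13a1* 0.41, *Oas1a* 0.12, *Msr1* 0.36, *Hk2* 0.28, *Slc16a3* -1.25, *Pclaf* 0.39, *Ccnb2* 0.49, *Cks2* 0.53, *Runx1* -0.15 and *Lpl* -1.3.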
